A study of Mus musculus with 15 samples.

Results

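The 10 genes described here encode MAP kinase phosphatases (Dusp1, Dusp2, Dusp4, Dusp5, Dusp6, Dusp10, Dusp14 and Dusp16) and inhibitors of signalling through RAS (Spry2 and Spred1). They were chosen by name, as probe sets that the array's annotation gives to 1 of these symbols and to no other gene. The choice was made with earlier results of these data known, so counts set against all genes are descriptions and not tests. The table names 18193 genes in all. The 10 hold 20 of 45037 probe sets on the array, controls left out, and 17 of the 20 passed the filter on low signal, so all 10 genes were among the 12701 genes tested. The cells were a line of dendritic cells from newborn A/J mice, taken from their epidermis, and RNA was measured in 3 arrays for each of 5 groups. The groups were cells given DNFB, cells given H2O2, cells given DPI, cells given DPI and DNFB (DPI + DNFB), and cells labelled non-treated. DNFB, dinitrofluorobenzene, is a contact allergen that binds to proteins; H2O2, hydrogen peroxide, is a reactive oxygen species; DPI, commonly short for diphenyleneiodonium, blocks flavin-containing enzymes such as NADPH oxidases and serves as the inhibitor of reactive oxygen species. Every group is the same single line, so no group has a wild type or genetic control beside it. Doses and times of exposure are not given in the sources used here, the series' own text speaks of vehicle where the labels say non-treated, and separate cultures behind the 3 arrays of each group are not stated. The p-values then measure no more than array-to-array spread, part of which may be technical.

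MAP kinases (ERK, JNK and p38) are switched on when both a threonine and a tyrosine of their activation loop are phosphorylated, and dual-specificity phosphatases switch them off by removing both phosphates. Many of these phosphatase genes are themselves turned on by MAP kinase signalling, so that they close a negative feedback loop. Sprouty and SPRED proteins act further up, between receptor tyrosine kinases and RAF. In dendritic cells, MAP kinases are known to take part in maturation after contact with allergens and microbes.

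Of 15 dendritic cell and leukocyte markers 14 passed the filter, among them Itgax (1958 to 3456) and Cd74 (24860 to 54250) as rescaled signal over all arrays. Flt3 (7.65 to 152.9) and Zbtb46 (146.5 to 312.5) also passed but were dim, in the range of the keratinocyte marker Krt5 (19.9 to 333.5). Passing the filter therefore does not by itself bear out the label of a dendritic cell. Ccr7, the receptor that guides mature dendritic cells to lymph nodes, was not kept, at 6.37 to 132. Of other cell types, 2 of 6 keratinocyte, 1 of 6 fibroblast, 1 of 5 T cell, 2 of 3 B cell, 1 of 5 mast cell and 2 of 5 melanocyte markers were kept. The summed dendritic cell and leukocyte signal was 149700 to 163200 in DPI + DNFB cells, 110600 to 118500 in DNFB cells and 122500 to 134400 in non-treated cells. The summed Langerhans cell signal was 1329 to 1447 in DNFB cells and 456 to 689 in non-treated cells, and the summed keratinocyte signal was 390 to 456 in DNFB cells and 139 to 338 in non-treated cells. Of the Langerhans cell markers, Cd207 ranged from 22.3 to 1088 over all arrays, and Epcam, Cd1d1 and Itgae reached at most 421, 205 and 227. In DPI + DNFB cells the sums were 329 to 828 for melanocyte, 259 to 476 for B cell and 279 to 414 for mast cell markers, against 222 to 309, 109 to 255 and 123 to 228 in non-treated cells. The part of these sums in the results was not tested. The beta-actin 3'/5' signal ratio, a measure of RNA integrity, was 2.07, 1.5 and 2.29 in DPI + DNFB cells, and at most 1.53 in the other 12 arrays. The Gapdh 3'/5' ratio was 0.952 to 1.27 in DPI + DNFB cells, above the highest of the other 12 arrays (0.922). Both ratios move with every comparison that holds DPI + DNFB cells, and fits with the beta-actin ratio as a covariate are given beside those results. Ratio and group cannot be told apart in those fits, and why a call was lost there was not tested. Replicate arrays correlated at 0.946 to 0.973 across genes, which are not independent replicates. The deposited signals had a trimmed mean of 250 on 6 arrays (2 of DNFB and 1 of each other group) and of 500 on 9 (1 of DNFB and 2 of each other group), and all signals below were rescaled to 500. Values within one target therefore set 1 array against 1 or 2 in some comparisons, with the spread pooled over groups, and are given as values and not as a test of stability. The number of arrays limits the precision. In a bulk sample, fewer cells of a type and less RNA per cell cannot be told apart.

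The upstream sequences of Dusp1 and Dusp5 are shown because these genes reached the 2 highest fold changes over non-treated cells in H2O2 cells among the 10. They are the 250 bases before the RefSeq gene start in GRCm38.p6, 5′ to 3′ on the gene's strand, with matches to the searched motifs in capitals. Dusp1 lies on the minus strand at chr17:26508473-26508722 and Dusp5 on the plus strand at chr19:53528895-53529144.
Dusp1: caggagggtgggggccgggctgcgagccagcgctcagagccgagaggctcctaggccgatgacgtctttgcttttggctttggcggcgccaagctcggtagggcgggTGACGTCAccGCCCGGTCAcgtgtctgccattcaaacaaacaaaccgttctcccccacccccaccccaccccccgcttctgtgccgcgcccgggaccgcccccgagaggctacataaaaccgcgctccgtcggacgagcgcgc
Dusp5: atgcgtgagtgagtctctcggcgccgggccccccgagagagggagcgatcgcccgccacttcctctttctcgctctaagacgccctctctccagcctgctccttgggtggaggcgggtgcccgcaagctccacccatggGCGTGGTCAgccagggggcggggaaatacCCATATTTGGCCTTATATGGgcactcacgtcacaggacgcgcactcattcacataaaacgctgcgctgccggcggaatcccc
The capitals in Dusp1 are TGACGTCA, the cyclic AMP response element, and a match to the antioxidant response element core TGACNNNGC on the other strand. The capitals in Dusp5 are a match to that core and a pair of adjoining CArG boxes, the motif bound by serum response factor. Over 32851 upstream windows of the same length, both strands searched, 1.55% held the cyclic AMP response element, 10.2% the antioxidant response element core and 1.47% a CArG box. The motif GCGNGGGCG of EGR proteins, in 4.7% of windows, matched in Dusp2 and Dusp16. The Dusp16 window (chr6:134792629-134792878) lies inside the span of its gene (134715468 to 134807063), not before the outermost start. The same holds for Dusp14, with a window at chr11:84068358-84068607 and a gene span of 84048033 to 84069256. TGANTCA (AP-1, 6.75% of windows) and TATAAA (12.4%) matched in 0 of the 9 members with a sequence; Dusp4 has none in the table. A match is a description of letters and not of binding, and the motifs were chosen with results of these data known.

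The 10 genes did not share one pattern. Dusp1, Dusp4, Dusp5 and Dusp16 had their 2 highest group means in DNFB and H2O2 cells and their lowest in non-treated cells. Dusp10 was highest in both groups given DPI, and Dusp6 was highest in non-treated cells. From the lowest to the highest of the 5 group means, the span on the log2 scale ran from 1.03 in Spry2 to 3.94 in Dusp1. Values below are rescaled signals of the probe set with the highest mean, and signals of different genes are not set against each other.

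**Figure D1:**
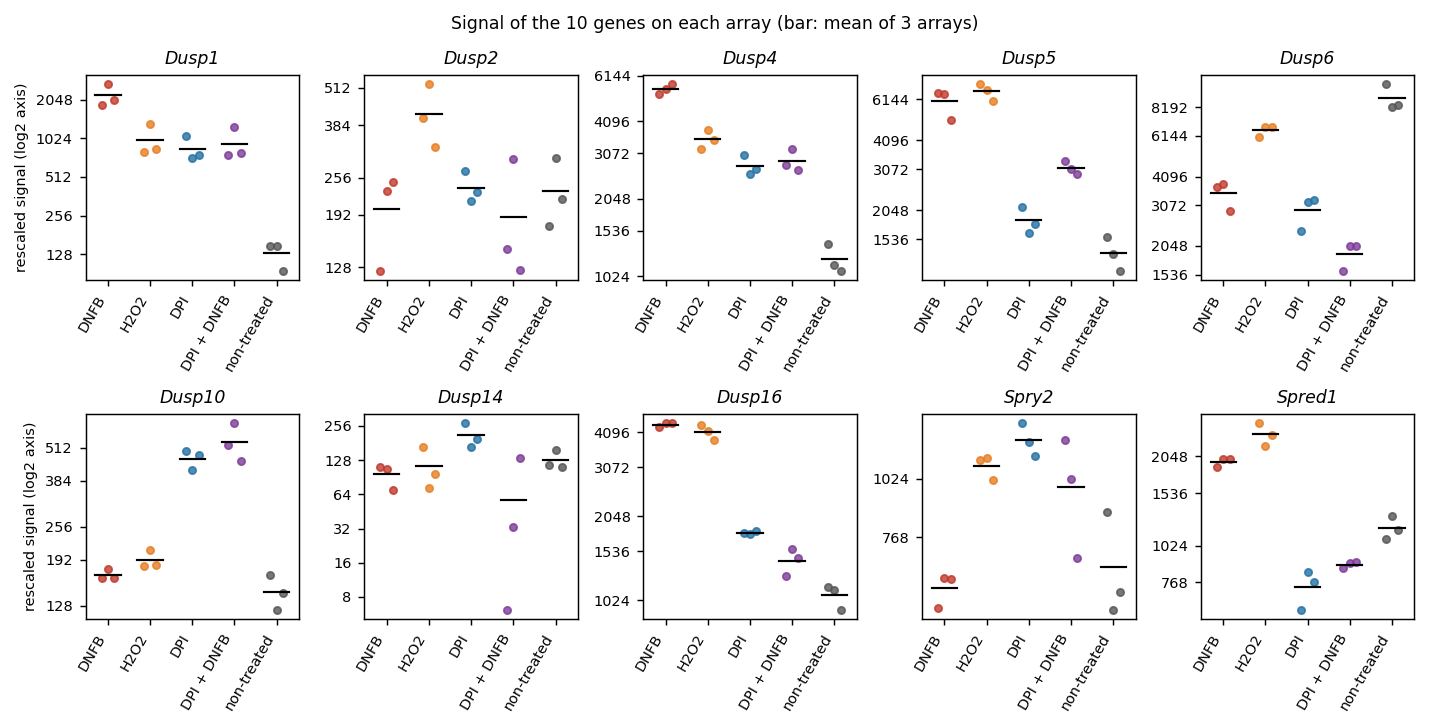
Rescaled signal of the representing probe set of each of the 10 genes (log2 axis) in every array, with groups from left to right DNFB, H2O2, DPI, DPI + DNFB and non-treated; points are arrays and bars the mean of 3. Dusp1 is lowest in the 3 non-treated arrays (95.5 to 149), Dusp6 is highest in them (8178 to 10342), and Dusp10 is highest in the 6 arrays of cells given DPI (419 to 635).

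Dusp1 encodes MKP-1, an early-response nuclear phosphatase that acts most on p38 and JNK. Its signal was 1875, 2720 and 2040.5 in DNFB cells, 803, 1318 and 849 in H2O2 cells, 1074, 714 and 758 in DPI cells, 756, 1257 and 780 in DPI + DNFB cells, and 149, 148 and 95.5 in non-treated cells. All 12 treated arrays lay above all non-treated arrays, and the DNFB arrays lay above every other array. Dusp4, the nuclear phosphatase MKP-2, had 5223, 5461 and 5709 in DNFB cells, 3180, 3789 and 3457 in H2O2 cells, 3016, 2548 and 2669 in DPI cells, 2773, 3178 and 2655 in DPI + DNFB cells, and 1366, 1131 and 1076 in non-treated cells. Its groups took the same order as those of Dusp1, and the DPI and DPI + DNFB arrays overlapped. Dusp5, a nuclear phosphatase that acts on ERK alone, had 6554, 6477 and 5006 in DNFB cells, 7150, 6734 and 6060 in H2O2 cells, 2118, 1638 and 1795 in DPI cells, 3327, 3079 and 2938 in DPI + DNFB cells, and 1565, 1325 and 1127 in non-treated cells. Here H2O2 and DNFB arrays overlapped above all others, and DPI + DNFB arrays lay between them and the DPI arrays. Dusp2, the nuclear phosphatase PAC-1 known from activated leukocytes, averaged 201 ± 66.8 in DNFB cells, 419 ± 102 in H2O2 cells, 237 ± 28.7 in DPI cells, 189 ± 91.9 in DPI + DNFB cells and 231 ± 61.7 in non-treated cells (SD, n = 3 each). Only its H2O2 arrays (325 to 528) lay apart from the non-treated arrays (177 to 298).

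Dusp6, the cytoplasmic phosphatase MKP-3, acts on ERK. Its signal was 3709, 3820 and 2899 in DNFB cells, 6092, 6731 and 6693 in H2O2 cells, 2374, 3182 and 3231 in DPI cells, 1601, 2045 and 2048 in DPI + DNFB cells, and 10342, 8178 and 8370 in non-treated cells. Every treated array lay below every non-treated array, and the DPI + DNFB arrays lay below all others.

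Dusp10 and Dusp16 encode MKP-5 and MKP-7, which act mainly on JNK and p38. Dusp10 had 164, 177 and 163 in DNFB cells, 181, 210 and 184 in H2O2 cells, 499.7, 419 and 478 in DPI cells, 523, 635 and 455 in DPI + DNFB cells, and 168, 124 and 143 in non-treated cells. The 6 arrays with DPI lay apart from the 9 without it. Dusp16 had 4269, 4408 and 4418 in DNFB cells, 4353, 4151 and 3832 in H2O2 cells, 1782, 1773 and 1805 in DPI cells, 1249, 1560 and 1450 in DPI + DNFB cells, and 1140, 1114 and 945 in non-treated cells. It was high in the DNFB and H2O2 arrays, which overlapped, and the DPI arrays lay above the DPI + DNFB arrays. Dusp14, a small atypical phosphatase known as MKP-6, averaged 95.6 ± 22.9 in DNFB cells, 112 ± 49.2 in H2O2 cells, 211 ± 52.7 in DPI cells, 57.2 ± 66.3 in DPI + DNFB cells and 128 ± 25.9 in non-treated cells (SD, n = 3 each). Its DPI + DNFB arrays were 6.16, 33.2 and 132, reaching from below every array of the other groups into the range of the non-treated arrays.

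Spry2 encodes Sprouty 2, which dampens RAS and ERK activation below growth factor receptors. It had 544, 628 and 625 in DNFB cells, 1122, 1135 and 1018 in H2O2 cells, 1346, 1226 and 1148 in DPI cells, 1239, 1022 and 695 in DPI + DNFB cells, and 870, 537 and 587 in non-treated cells. The H2O2 and DPI arrays lay above the non-treated arrays, while those of DNFB and of DPI + DNFB overlapped them. Spred1 encodes a membrane protein that brings neurofibromin to RAS. It had 1889, 2005 and 2004 in DNFB cells, 2654, 2215 and 2427 in H2O2 cells, 620, 830 and 774 in DPI cells, 856, 895 and 898 in DPI + DNFB cells, and 1078, 1292 and 1154 in non-treated cells. Its arrays lay above the non-treated ones with DNFB and with H2O2, and below them with DPI and with DPI + DNFB.

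DNFB cells held more RNA of 4 phosphatases and of Spred1 than non-treated cells, and less of Dusp6. Dusp1 rose by 3.94 ± 0.233 on the log2 scale (SE, limma, adjusted p = 3.92e-10), a 15.3-fold difference. Dusp4 rose by 2.19 ± 0.115, Dusp5 by 2.16 ± 0.135 and Dusp16 by 2.02 ± 0.109, each 4.06-fold to 4.56-fold, and Spred1 rose by 0.74 ± 0.124 (adjusted p = 0.000153). Dusp6 fell 2.58-fold, with adjusted p = 6.14e-07. Of the 10 genes 5 rose, 1 fell and 4 did not pass, against 24.4% of all genes tested called (10.5% higher, 13.9% lower). The arrays of the groups did not overlap for 6 of the 10, against 41.5% of all genes. The median log2 difference was 0.47 over the 10 genes and -0.055 over all genes. Spry2 differed by -0.12, with a 95% interval of -0.51 to 0.27, and Dusp2, Dusp10 and Dusp14 had adjusted p of 0.702, 0.534 and 0.669. Within arrays of a scaling target of 500 the Dusp1 difference was 4.35, and within those of 250 it was 3.59. Comparisons with non-treated cells share those 3 arrays.

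H2O2 cells differed from non-treated cells in the same direction for each of those 6 genes, and Spry2 was higher as well. Dusp1 rose 6.84-fold (log2 difference 2.77 ± 0.233, SE, limma, adjusted p = 3.83e-08), Dusp5 4.95-fold, Dusp16 3.82-fold and Dusp4 2.9-fold. Spred1 rose 2.06-fold and Spry2 1.66-fold (adjusted p = 0.00573). The Spry2 call was lost with the mean of its probe sets (0.43, adjusted p = 0.0814). Dusp6 fell 1.37-fold with adjusted p = 0.0202, and that call was lost without non-treated replicate 1 (-0.35) or without H2O2 replicate 1 (-0.41). The count was 6 higher, 1 lower and 3 not passed, against 28.3% of all genes called (10.9% higher, 17.4% lower). Arrays did not overlap for 9 of the 10, against 42.8% of all genes. The median log2 difference was 0.93 over the 10 genes and -0.065 over all genes. Dusp2 had a log2 difference of 0.82 ± 0.31 and missed the threshold at adjusted p = 0.0534. The difference in Dusp5 was 2.37 within arrays of a target of 500 and 2.18 within those of 250.

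DNFB cells were then set against H2O2 cells, with dose and time of either agent not given. Dusp1 was 2.24-fold higher in DNFB cells (adjusted p = 0.00199, limma) and Dusp4 1.57-fold higher (adjusted p = 0.000729). Dusp6 was 1.88-fold lower in DNFB cells (adjusted p = 0.000221) and Spry2 1.8-fold lower (adjusted p = 0.00429). The Spry2 call was lost with the mean of its probe sets (-0.49, adjusted p = 0.0756). Dusp2 was also lower, by a log2 difference of -1.03 ± 0.31 (adjusted p = 0.0292), and that call was lost without DNFB replicate 1 (-0.74), H2O2 replicate 1 (-1.04) or H2O2 replicate 2 (-0.86). No difference passed for Dusp5 (log2 difference -0.15, 95% interval -0.43 to 0.13) or Dusp16 (0.09, -0.14 to 0.32). In all, 2 genes were higher, 3 lower and 5 not passed, against 14.7% of all genes called (8.75% higher, 6% lower). Under median centring 985 genes were higher and 407 lower, in place of 1111 and 762. Arrays did not overlap for 7 of the 10, against 33% of all genes. Within arrays of a target of 500 the Dusp6 difference was -0.81, and within those of 250 it was -0.89. Those of 500 hold 1 DNFB array, and gave 1.35 for Dusp1, 0.59 for Dusp4, -0.76 for Spry2 and -0.80 for Dusp2.

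**Figure D2:**
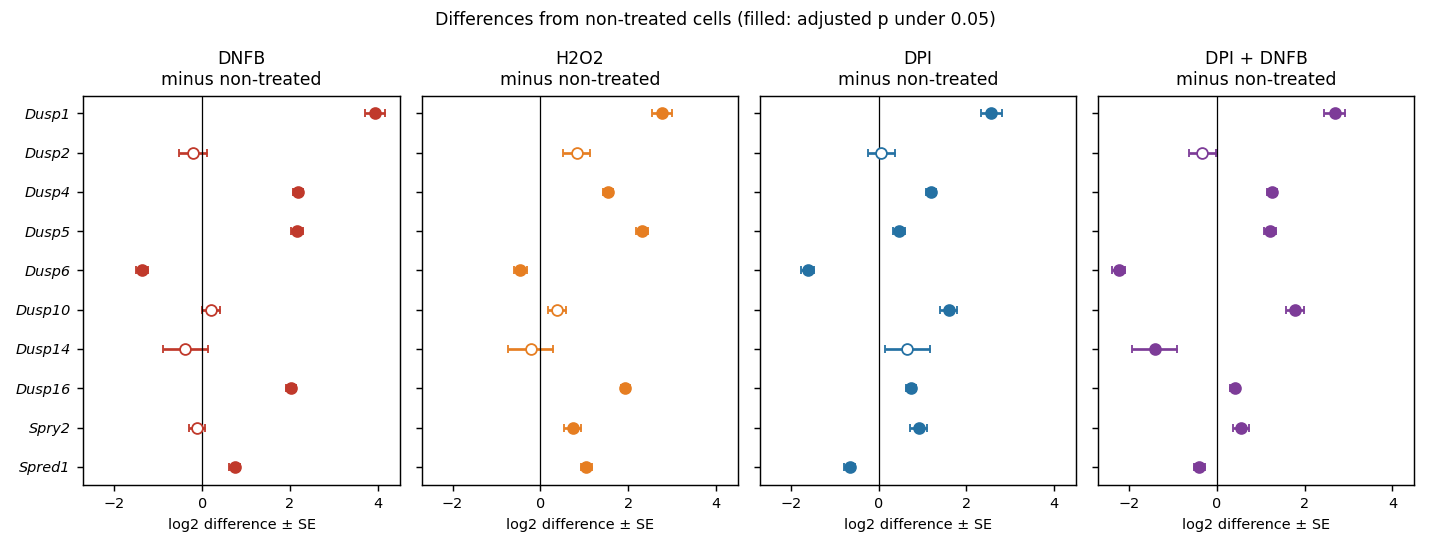
Log2 difference from non-treated cells (horizontal axis, error bars SE) of each of the 10 genes (rows), with a panel each for DNFB, H2O2, DPI and DPI + DNFB cells; filled points passed an adjusted p of 0.05. Dusp1 lies farthest right in DNFB cells at 3.94, Dusp6 is below 0 in all 4 comparisons, and Dusp10 is filled only in DPI (1.60) and DPI + DNFB cells (1.79).

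DPI alone also moved most of the genes. Dusp1 rose 5.93-fold (log2 difference 2.57 ± 0.233, SE, limma, adjusted p = 1.01e-07) and Dusp10 3.02-fold (adjusted p = 6.04e-06). Dusp4 rose 2.29-fold, Spry2 1.88-fold and Dusp16 1.67-fold. Dusp6 fell 3.06-fold and Spred1 fell 1.58-fold (adjusted p = 0.000399 for Spred1). With the mean of a gene's probe sets the calls of Dusp16 (0.20, adjusted p = 0.418) and Spred1 (-0.34, adjusted p = 0.087) were lost. Dusp5 rose 1.38-fold at adjusted p = 0.0117, and lost the call without non-treated replicate 3 (0.35) or DPI replicate 1 (0.37). Of the 10 genes 6 rose, 2 fell and 2 did not pass, against 31.8% of all genes called (13.3% higher, 18.4% lower). Arrays did not overlap for 9 of the 10, against 46.2% of all genes. The median log2 difference was 0.70 over the 10 genes and -0.007 over all genes. Within arrays of a target of 500 the difference was 1.65 for Dusp10 and -1.36 for Dusp6, and within those of 250 it was 1.49 and -2.12.

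In DPI + DNFB cells, 6 genes were higher than in non-treated cells, 3 were lower and 1 did not pass, against 33.8% of all genes called (15% higher, 18.7% lower). Under median centring 920 genes were higher and 3729 lower, in place of 1910 and 2381, and 4 of the 10 were higher and 3 lower. Arrays did not overlap for 7 of the 10, against 44.4% of all genes. Dusp1 rose 6.42-fold, Dusp10 3.45-fold, Dusp4 2.4-fold and Dusp5 2.33-fold, with adjusted p of at most 1.99e-06 (limma). Dusp6 fell 4.7-fold. Dusp16 rose by 0.41 ± 0.109 (adjusted p = 0.00664), a call lost under median centring (0.16, adjusted p = 0.436), with the mean of its probe sets (0.26, adjusted p = 0.26) and in a fit of the groups compared alone (adjusted p = 0.0532). The calls of Spry2 (0.55 ± 0.188, adjusted p = 0.0291), Dusp14 (-1.41 ± 0.514, adjusted p = 0.0398) and Spred1 (-0.40 ± 0.124, adjusted p = 0.017) were each lost without at least 1 array: Spry2 without non-treated replicate 2 (0.42) or 3 (0.48) or DPI + DNFB replicate 1 (0.37) or 2 (0.50), Dusp14 without any non-treated array (-1.47, -1.27 and -1.5) or DPI + DNFB replicate 1 (-0.75) or 2 (-1.34), and Spred1 without non-treated replicate 2 (-0.33) or DPI + DNFB replicate 1 (-0.38). With the beta-actin ratio as a covariate 5 of the 10 genes were called, against 7.32% of all genes in that fit. The 4 calls lost were Dusp16 (0.56, adjusted p = 0.0703), Spry2 (0.78, adjusted p = 0.161), Dusp14 (-2.18, adjusted p = 0.15) and Spred1 (-0.32, adjusted p = 0.431). Of these, Dusp16, Spry2 and Dusp14 had larger differences in size than without the covariate, and Spred1 a smaller one. The Dusp16 difference was 0.55 within arrays of a target of 500 and 0.13 within those of 250, and the Dusp6 difference was -2.01 and -2.68.

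Between DPI + DNFB and DPI cells 4 of the 10 genes differed. Dusp5 was 1.69-fold higher in DPI + DNFB cells than in DPI cells (log2 difference 0.75 ± 0.135, SE, limma, adjusted p = 0.0004), Dusp6 was 1.53-fold lower (adjusted p = 0.00299) and Dusp14 was lower by a log2 difference of -2.07 ± 0.514 (adjusted p = 0.00534), which was -1.40 without DPI + DNFB replicate 1 and -2.80 without replicate 3. Dusp16 was lower by a log2 difference of -0.33 ± 0.109 (adjusted p = 0.0269), lost without any DPI array (-0.34 to -0.33) or DPI + DNFB replicate 1 (-0.25), and it was 0.06 with the mean of its probe sets. The differences of Dusp1 (0.12, 95% interval -0.37 to 0.60) and Dusp4 (0.06, -0.18 to 0.30) did not pass. In all, 1 gene was higher, 3 lower and 6 not passed, against 27.8% of all genes called (14.1% higher, 13.7% lower), and arrays did not overlap for 5, against 38.6%. Under median centring 666 genes were higher and 2863 lower, in place of 1785 and 1745. With the beta-actin ratio as a covariate 0 of the 10 were called, against 4.26% of all genes in that fit, with values of 0.63 for Dusp5 (adjusted p = 0.118), -0.64 for Dusp6 (adjusted p = 0.138), -2.79 for Dusp14 (adjusted p = 0.0699) and -0.19 for Dusp16 (adjusted p = 0.611). Within arrays of a target of 500 the Dusp5 difference was 0.81, and within those of 250 it was 0.65.

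Against DNFB cells, DPI + DNFB cells had less of 6 genes and more of 2, against 44.2% of all genes called (22.9% higher, 21.3% lower). Under median centring 1617 genes were higher and 3812 lower, in place of 2911 and 2706. Arrays did not overlap for 8 of the 10, against 52.3% of all genes. Dusp16 was 3.07-fold lower (log2 difference -1.62 ± 0.109, SE, limma, adjusted p = 1.09e-09) and Spred1 2.21-fold lower. Dusp5, Dusp4 and Dusp6 were 1.91-fold, 1.91-fold and 1.82-fold lower. Dusp1 was 2.39-fold lower. With DPI + DNFB replicate 2, which had the lowest beta-actin ratio of its group, as the lone array of that group and its spread taken from the other groups, the difference was -0.79 (adjusted p = 0.063). Dusp10 was 2.99-fold higher, and Spry2 1.59-fold higher. The Spry2 call was lost without DPI + DNFB replicate 1 (0.49) and under median centring (0.395, limma, adjusted p = 0.133). The median log2 difference was -0.93 over the 10 genes and 0.101 over all genes. Within arrays of a target of 500 the Dusp16 difference was -1.54, and within those of 250 it was -1.79. With the beta-actin ratio as a covariate 2 of the 10 were higher and 6 lower, against 22.9% of all genes called in that fit; Dusp16 was -1.49 and Dusp1 -1.02 (adjusted p = 0.0476).

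Whether DNFB acted differently in the presence of DPI was tested as an interaction: the difference between DPI + DNFB and DPI cells, less that between DNFB and non-treated cells. It passed for 6 of the 10 genes, 1 higher and 5 lower, against 31.1% of all genes called (17.3% higher, 13.8% lower). Under median centring 1099 genes were higher and 2410 lower, in place of 2195 and 1750, and Dusp6 lost its call (0.47, adjusted p = 0.163). For Dusp1 the effect of DNFB was 0.12 with DPI and 3.94 without it, an interaction of -3.82 ± 0.329 (SE, limma, adjusted p = 7.61e-08). The interaction was -2.36 ± 0.154 for Dusp16, -2.13 ± 0.163 for Dusp4 and -1.40 ± 0.191 for Dusp5, whose DNFB effect was 0.75 with DPI and 2.16 without. For Dusp6 it was 0.75 ± 0.2 (adjusted p = 0.00721), the effect of DNFB being -0.62 with DPI and -1.37 without. For Spred1 it was -0.48 ± 0.176 (adjusted p = 0.0434), lost on leaving out non-treated replicate 1 or 3, any DNFB array, H2O2 replicate 3, DPI replicate 2 or 3, or DPI + DNFB replicate 1 or 3 (-0.51 to -0.40). Dusp10 showed none that could be detected, at -0.01 with a 95% interval of -0.61 to 0.59. With the beta-actin ratio as a covariate, where 20.3% of all genes were called, the interaction passed for Dusp1 (-3.61), Dusp16 (-2.24), Dusp4 (-2.02) and Dusp5 (adjusted p = 0.000253), and Dusp6 (0.73, adjusted p = 0.0514) and Spred1 (-0.42, adjusted p = 0.206) no longer passed. Within arrays of a target of 500 and of 250 it was -3.93 and -4.09 for Dusp1.

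**Figure D3:**
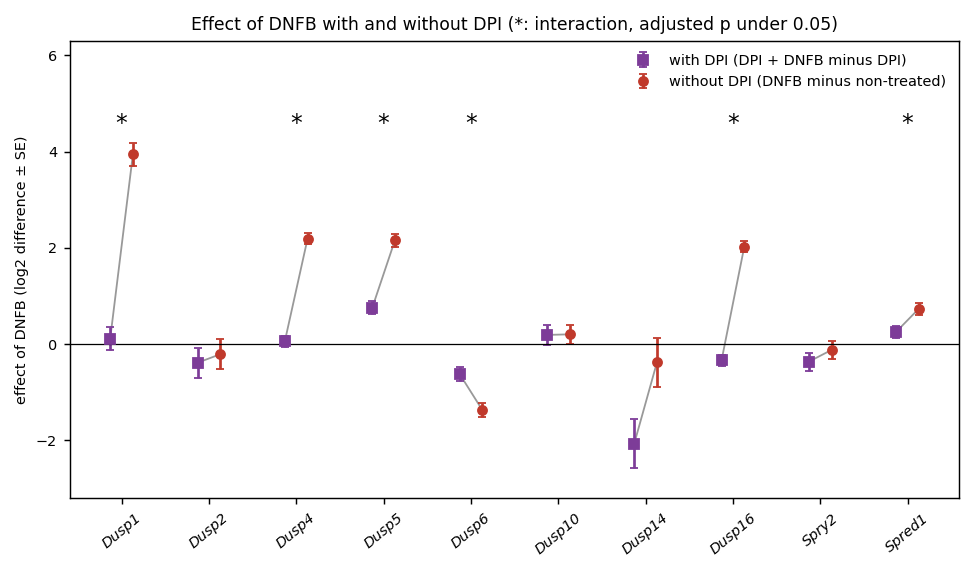
Log2 effect of DNFB (vertical axis, error bars SE) on each of the 10 genes with DPI (squares, left) and without DPI (circles, right); an asterisk marks an interaction past an adjusted p of 0.05. For Dusp1 the square lies at 0.12 and the circle at 3.94, and for Dusp10 they lie at 0.19 and 0.20.

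Other probe sets of the same genes measured the response unevenly. The second probe set of Dusp16 gave no call in any comparison, with 1.07 ± 0.421 in DNFB against non-treated cells (limma, adjusted p = 0.0849) and a sign opposite to the first in DPI cells (-0.33). The second probe set of Spry2 gave none either. The second probe set of Dusp10 did not pass the filter on low signal, so the Dusp10 values rest on 1 probe set. It averaged 14.6 in DPI, 68.9 in DPI + DNFB (8.9 to 100.7) and 14.25 in non-treated cells. Of the 5 other kept probe sets of Spred1, 4 were called higher in DNFB cells and 3 in H2O2 cells than in non-treated cells, and 5 of 5 were called lower in DPI + DNFB than in DNFB cells. Only 1 of them was called lower in DPI cells (-0.97) and in DPI + DNFB cells (-0.78) than in non-treated cells, and none passed the interaction. A call below the non-treated level stood in 2 of 6 kept probe sets.

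**Figure D4:**
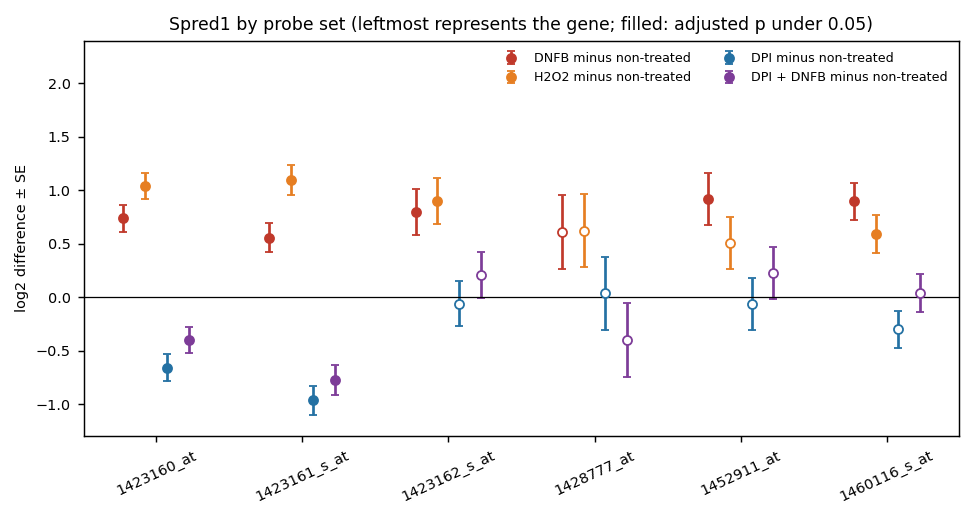
Log2 difference from non-treated cells (vertical axis, error bars SE) for the 6 kept probe sets of Spred1, the leftmost of which represents the gene, in DNFB, H2O2, DPI and DPI + DNFB cells; filled points passed an adjusted p of 0.05. The leftmost lies at 0.74 with DNFB and -0.66 with DPI.

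Among themselves, the closest of the 10 genes over the 15 arrays, by root mean square distance of centred log2 signals, were Dusp5 and Dusp16 (0.395), then Dusp4 and Dusp16 (0.435), and the farthest were Dusp1 and Dusp6 (1.92). Of genes outside the 10, Dusp10 lay nearest to Fbxo33 (0.158), Spred1 to Mapkapk3 (0.163), a kinase activated by p38, Dusp5 to Phlda1 (0.265), and Dusp4 to Vps37b and Klf6 (0.269 each). Dusp1 lay nearest to Abtb2 (0.576) and Cxcl2 (0.628), a chemokine that draws neutrophils. The median distance from Dusp1 was 1.41 over 11926 genes, with the 10 and genes of predicted or clone names left out. Over the same genes the median was 0.841 for Dusp10, 0.807 for Spred1, 1.03 for Dusp5 and 0.855 for Dusp4. These distances describe 15 arrays of 5 groups that share treatments.

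Other genes of the pathway were read from lists chosen with results of these data known. Of all genes tested, 24.4%, 28.3%, 31.8% and 33.8% were called in DNFB, H2O2, DPI and DPI + DNFB cells against non-treated cells. Of 16 tested phosphatases outside the 10, 5 rose and 3 fell in DNFB cells, 3 and 2 in H2O2 cells, 2 and 1 in DPI cells and 1 and 1 in DPI + DNFB cells, each against non-treated cells. Dusp8, a phosphatase of JNK and p38, rose 9.66-fold in DNFB cells (limma, adjusted p = 3.21e-09) and had an interaction of -3.82 (adjusted p = 7.61e-08). Dusp7, a cytoplasmic phosphatase of ERK, fell 2.87-fold in DNFB cells and had an interaction of 2.62 (adjusted p = 2.29e-06). Of 20 other feedback inhibitors, 4 rose and 4 fell in DNFB cells, 4 and 7 in H2O2 cells, 5 and 4 in DPI cells and 3 and 7 in DPI + DNFB cells. Socs3, an inhibitor of cytokine receptors, rose 5.25-fold in DNFB cells, Errfi1, an inhibitor of EGF receptors, rose 2.94-fold in H2O2 cells, and Dok1, an adaptor that restrains RAS, fell 4-fold in DPI cells. The genes named are given in the group of their largest difference, and other groups changed too. Dusp8 averaged 856.5 in H2O2 cells against 109 in non-treated cells, and Socs3 1118 against 282. In DNFB cells Errfi1 averaged 3270 against 1682 in non-treated cells, and Dok1 1387 against 2408. Dusp7 averaged 275 in H2O2, 946 in DPI + DNFB and 718.5 in non-treated cells.

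Of 20 tested genes known as outputs of ERK, 10 rose and 3 fell in DNFB cells, 14 and 2 in H2O2 cells, 11 and 2 in DPI cells and 10 and 2 in DPI + DNFB cells, with median log2 differences of 0.70, 1.62, 0.44 and 1.06. Over all genes the medians were -0.055, -0.065, -0.007 and 0.024, and 24.4%, 28.3%, 31.8% and 33.8% were called. Egr1, an early-response transcription factor, rose 32.4-fold in H2O2 cells (limma, adjusted p = 3.66e-08), and its log2 difference in DNFB cells was 0.93 with adjusted p = 0.119. Egr2 rose 17.6-fold in DPI cells, and Fos rose 16.2-fold and Hbegf, a ligand of EGF receptors, 10.2-fold in DPI + DNFB cells. These genes are named in the group of their largest difference, and other groups changed too. Fos averaged 8398 in DPI, 10620 in DPI + DNFB and 665 in non-treated cells. In the same order Hbegf averaged 1619, 2331 and 215, Egr2 1425, 1121 and 66.3, and Egr1 7502, 13000 and 559. H2O2 cells averaged 1906 for Fos, 1176 for Hbegf and 316.5 for Egr2.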

How the data were processed

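RNA of 15 samples of a dendritic cell line was hybridised to 1-colour mouse expression arrays. The deposited values are linear signal intensities per probe set, made by the authors with MAS5 in Affymetrix Expression Console, per the submitters' processing notes; versions are not given in the sources used here. Each array was rescaled to a 2% trimmed mean of 500, since the deposited arrays had 2 scaling targets, and log2(signal + 15) was taken, which understates changes of dim genes. Probe sets with a mean under the 40th percentile were left out. Names came from the platform's annotation: 34945 probe sets had 1 symbol, 932 several and 9160 none. The probe set with the highest mean stood for a gene. limma 3.58.1 in R 4.3.3 fitted all 15 arrays, with an empirical Bayes trend and Benjamini-Hochberg adjustment over 12701 genes (threshold 0.05), for 7 pairwise comparisons and 1 interaction; the fit was tested on simulated data. The 10 genes, the 5 pathway lists and the motifs were chosen with earlier results of these data known. All 10 genes are named; of each list up to 4 genes with the largest differences from non-treated cells could be named, and for each member up to 3 nearest genes; the nearest gene to Dusp16 is not reported here. Alternatives varied scaling, filter, pseudocount, probe set choice, model, blocks and arrays.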

Additional observations from a re-analysis of the deposited data

Results flagged for a closer look

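For 6 of the 10 genes the effect of DNFB differed by whether DPI was present, by a test of the difference itself (limma, 3 arrays in each of the 4 groups), against 31.1% of all genes tested. The interaction on the log2 scale was -3.82 for Dusp1, -2.36 for Dusp16, -2.13 for Dusp4, -1.40 for Dusp5, -0.48 for Spred1 and 0.75 for Dusp6. The Spred1 call was lost in 21 of 35 other settings. All 4 groups enter it, so the beta-actin 3'/5' ratio, which was highest in DPI + DNFB cells, moves with it; with that ratio as a covariate 4 of the 6 passed.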

How the results depend on the processing

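The numbers of the 10 genes called were 6, 7, 8 and 9 for DNFB, H2O2, DPI and DPI + DNFB against non-treated cells, 4 for DPI + DNFB against DPI, 8 against DNFB, 5 for DNFB against H2O2 and 6 for the interaction. In the same order, with values as deposited and no rescaling they were 3, 3, 1, 3, 0, 1, 0 and 1, and over all genes 210, 176, 214, 180, 7, 829, 26 and 137, against 3105, 3591, 4035, 4291, 3530, 5617, 1873 and 3945 after rescaling; under the other settings these all-gene counts reached a lowest of 1349, 1784, 2326, 930, 541, 2904, 353 and 2264 and a highest of 3850, 4006, 4738, 4687, 3971, 5951, 2301 and 4334. With all kept probe sets tested, the calls were 4504, 5304, 6061, 6911, 5419, 8992, 2548 and 5875 of 22561 probe sets. As deposited, the all-gene median of DNFB against non-treated cells was -0.365. With the beta-actin ratio as a covariate 5 genes were called for DPI + DNFB against non-treated cells and 0 against DPI. With only arrays of a target of 500, 2 were called for DPI + DNFB against DPI and 1 for DNFB against H2O2, and with only those of 250, 1 for DPI + DNFB against DPI; these sets hold 1 array of some groups, with the spread pooled over groups, and the same fits called 2225, 353 and 1438 of all genes. The DPI + DNFB group was also held to its replicate 2, an alternative chosen after seeing the data. The differences from DPI cells were then smaller in size for Dusp6 (-0.50) and Dusp16 (-0.19) than with all arrays (-0.62 and -0.33). Leaving out each array in turn gave 6 to 6, 6 to 8, 7 to 8, 6 to 9, 3 to 4, 7 to 9, 4 to 5 and 5 to 6. Over all genes those fits called 2502 to 3281, 2907 to 3785, 3264 to 4225 and 3499 to 4465 against non-treated cells. In the comparisons that followed they called 2590 to 3794, 4902 to 5652, 1251 to 2081 and 3483 to 4175 of all genes. Of 53 called values all kept their sign in every setting that gave a value except Dusp16 in DPI + DNFB against DPI, which was 0.059 with the mean of its probe sets; the cause was not tested. A filter at the 60th percentile left out Dusp14. Replicate numbers were checked for pairing: deviations of same-numbered arrays correlated at -0.00273 to 0.144, with 9 of 30 pairs over 0.1, while all 15 arrays correlated best with an array of their own number, a hint from the data and not from the design. Replicate 1 had a target of 250 in every group, and replicates 2 and 3 had 500 except DNFB replicate 3. Replicate number and scaling target therefore overlap and cannot be fully told apart. With a replicate block the counts were 6, 8, 8, 9, 4, 8, 5 and 6, all 53 calls were kept, and Dusp2 in H2O2 cells (0.82, adjusted p = 0.0295) was gained. Over all genes that fit called 3482, 3944, 4429, 4687, 3971, 5951, 2301 and 4334. The number of arrays and the signal over background limit what Dusp2, Dusp10 and Dusp14, the dim genes, can show.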

Other observations

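Of all genes tested, 24.4%, 28.3%, 31.8% and 33.8% were called in DNFB, H2O2, DPI and DPI + DNFB cells against non-treated cells. Of 29 tested kinases of the MAP kinase cascades, 8 were higher and 3 lower in DNFB than in non-treated cells, 6 and 4 in H2O2 cells, 4 and 2 in DPI cells and 4 and 5 in DPI + DNFB cells. Map4k4 rose 2.77-fold and Map3k1 2.56-fold in DNFB cells, and Map3k8, a kinase known to activate ERK below Toll-like receptors, rose 2.36-fold in DPI cells (limma, adjusted p = 0.00404). Of 17 kinases and nuclear proteins that MAP kinases act on, 7 were higher and 1 lower in DNFB cells, 8 and 3 in H2O2 cells, 4 and 5 in DPI cells and 5 and 6 in DPI + DNFB cells. Jun rose 3.04-fold in DNFB cells, Zfp36, which destabilises cytokine mRNAs, rose 3.06-fold and Jund 2.91-fold in H2O2 cells, and Rps6ka5, a kinase activated by ERK and p38, fell 4.49-fold in H2O2 cells. The genes named are given in the group of their largest difference, and other groups changed too. In DNFB, H2O2, DPI, DPI + DNFB and non-treated cells Jun averaged 7454, 6408, 3015, 6583 and 2482. In the same order Jund averaged 6313, 6622, 2299, 3674 and 2258, and Rps6ka5 368, 224, 512, 368 and 1034. Map3k8 averaged 181.5 in H2O2, 203 in DPI and 78.5 in non-treated cells.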
